A study of Homo sapiens with 20 samples.

Results

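The 39 genes described here are known targets of the transcription factor p53 with mixed functions, set apart from its best-known arrest, apoptosis and feedback targets. They were taken by name from a list of symbols, with no threshold on a measured value. The list was made with earlier results of these data known, so it is not blind to them. All 39 listed genes had a transcript cluster (the probes of 1 transcription unit) that the platform annotation pairs with that symbol alone, out of 18417 genes measured in this way. PTCHD4 had 2 such clusters, and the brighter was used. Binding of p53 to these genes was not measured by the arrays.

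The cells were B5/589, a line of mammary epithelium from human tissue that has been immortalized, here with a p53 transgene that doxycycline switches on, and total RNA was measured. The 20 Affymetrix arrays fall into 5 groups of 4, and all 5 groups carry the transgene and were grown in serum medium with epidermal growth factor. At 24 h the doxycycline doses were 0, 3 and 5 ng, and at 12 h they were 3 and 5 ng, with no volume given in the labels. Uninduced cells at 12 h and cells without the transgene were not analysed here, so induced p53 and doxycycline itself cannot be told apart. The labels do not state that replicate arrays represent independent cultures, so the p-values measure an array-to-array spread that may be technical. RNA was taken from whole cultures, so a change in the share of cells that express a gene and a change in RNA per cell cannot be told apart.

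p53 binds DNA as a tetramer, at response elements built from a pair of decamers, and raises transcription of the genes that carry them. Besides the cell cycle inhibitors and BCL2 family members through which it is best known, its targets include genes for DNA repair, metabolism, secreted factors and proteins of the cell surface, many of them induced by DNA damage in epithelial cells. The members are ordered below by these roles.

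Promoter sequence was available for 32 of the 39 genes, as 49 windows that run from 250 bases before to 50 bases after an annotated start (RefSeq, GRCh38.p14). Each window was searched on both strands for the p53 consensus decamer, and for a pair of decamers up to 13 bases apart with at most 2 mismatches in all and the central C and G kept. A decamer without mismatch was in 12.2% of the 49 windows and in 6.63% of all 35116 windows, and a pair was in 10.2% and 2.93%. The 5 pairs are shown because they are the closest matches to a p53 element near a member's start, with the decamers in capitals and each sequence read 5′ to 3′ on the gene's strand.
PTCHD4, chr6:48111198-48111217, minus strand, 0 mismatches: AGGCTTGCCCAGACTTGCCC
PANK1, chr10:89645238-89645265, minus strand, 1 mismatch: GGGCATGCTCagtggcggGGACCAGTCT
HSPA4L, chr4:127783509-127783528, plus strand, 2 mismatches: AAACATGTTTCCACATGTTC
AEN, chr15:88621306-88621325, plus strand, 2 mismatches: GGGCTTGCCCGGGCATGTGG
DCP1B, chr12:2004650-2004669, minus strand, 2 mismatches: GGGCAGGCCTGGGCTTGTCG
ABCA12 and RPS27L each had a single decamer without mismatch and no pair, shown in capitals with the bases around it because ABCA12 had the largest change of all members.
ABCA12, chr2:215138689-215138718, minus strand: agagaatgtaGGACAAGTCCtactggcctt
RPS27L, chr15:63157517-63157546, minus strand: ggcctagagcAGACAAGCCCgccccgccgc
The PTCHD4 pair ends 1 base before the annotated start of its window, and the PANK1 and HSPA4L pairs cross the start of theirs. These genes and ABCA12 also had windows at other annotated starts, which held neither a pair nor a decamer without mismatch. A match is a description of letters in this window and not evidence of binding.

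Values are log2 signals after the arrays were brought to 1 common distribution (quantile normalization). The step matters because the deposited values of whole arrays differed, with array medians between 4.54 and 5.54 and group means of those medians of 4.80 at 5 ng and 24 h, against 5.07 at 0 ng. On the deposited scale the median of all 18417 genes lay 0.24 lower at 5 ng than at 0 ng, on the quantile scale 0.07 higher. Calls made on the quantile scale alone are listed for each comparison. The 10 mammary epithelial markers had a median of 11.65 at 5 ng and 24 h, against 11.25 at 0 ng. Among them KRT8 and KRT18, the keratin pair of simple epithelia, averaged 12.9 and 12.9, against 12.3 and 12.5. The lowest was KRT19, at 5.73, against 5.20, where the median of all genes was 5.73, against 5.74. The lowest of the immune markers was PTPRC, at -0.50 at 5 ng and 24 h, against -0.44 at 0 ng, and the highest was CD68, at 8.87, against 8.55. The lowest of the fibroblast markers was LUM, at -1.19, against -0.88, and the highest was COL1A1, at 6.14, against 6.17.

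At 24 h nearly the whole set was higher with p53 induced. At 5 ng 36 of the 39 genes rose and none fell (limma, Benjamini-Hochberg adjusted p under 0.05 over all genes), where 20.6% of all genes rose and 17.2% fell. At 3 ng 35 rose and none fell, where 15.4% of all genes rose and 12.5% fell. The median difference of the members from 0 ng was 1.17 at 5 ng, against 0.07 for all genes, and 0.71 at 3 ng, against 0.08. Both comparisons use the same 4 uninduced arrays. Between the doses, 25 members were higher at 5 ng than at 3 ng and none lower, where 5.96% of all genes were higher and 4.42% lower, with a median difference of 0.39 for the members and -0.02 for all genes. As deposited, without scaling, the counts were 27 at 5 ng, 13 at 3 ng and 13 between the doses. With each array centred on its median they were 34, 22 and 21. Of all 18417 genes, 833, 276 and 329 rose in these comparisons as deposited, and 2172, 814 and 724 with centred arrays. Members called on all 3 scales numbered 27, 13 and 13. At 3 ng these 13 were ABCA12, CES2, CMBL, GDF15, ANKRA2, CYFIP2, SPATA18, TRIM22, ZMAT3, ZNF385A, RPS27L, TP53I11 and SERPINB5. Called on the quantile scale alone at 3 ng were another 13: PERP, PHLDA3, TRIAP1, BTG1, CCNG1, CCNG2, IER5, ASCC3, FBXO22, RNF19B, SUSD6, FUCA1 and HSPA4L. The 9 called at 5 ng on the quantile scale but not as deposited were CCNG1, CCNG2, HSPA4L, ASCC3, IER5, TRIAP1, PTCHD4, FUCA1 and TGFA, of which FUCA1 and TGFA were not called with centred arrays either. Between the doses the 13 were ANKRA2, PANK1, TP53I11, ABCA12, POLH, RNF19B, CES2, SUSD6, EDA2R, GDF15, SPATA18, CYFIP2 and PERP, and the 4 called on the quantile scale alone were PHLDA3, BTG1, RPS27L and HSPA4L. The scale also sets the balance over all genes: of all calls, 54.4% were rises at 5 ng, 55.1% at 3 ng and 57.4% between the doses on the quantile scale, against 16.1%, 6.13% and 70.3% as deposited and 44.3%, 25.6% and 76.5% with centred arrays.

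**Figure D1:**
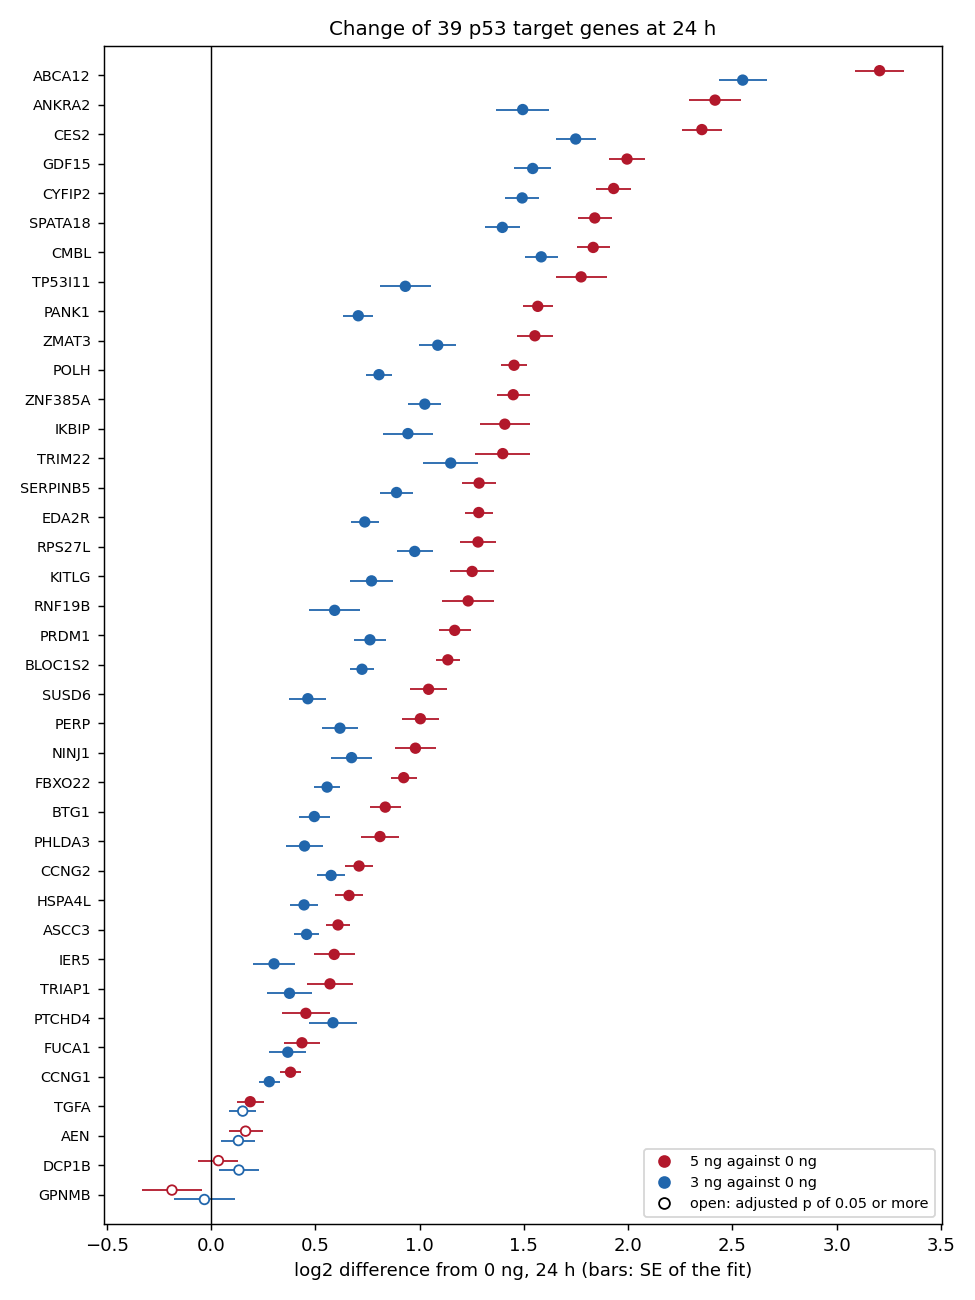
Log2 difference from 0 ng at 24 h for each of the 39 genes, at 5 ng (red) and 3 ng (blue), with bars for the standard error of the fit over 4 arrays a group and open symbols where the adjusted p was 0.05 or more. ABCA12 stands at the top with 3.21 and 2.55, and GPNMB at the bottom with -0.19 and -0.03.

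Of the 10 members tied to cell death, survival or mitochondrial upkeep, 9 rose at 5 ng with a median of 1.14, 9 rose at 3 ng with a median of 0.71, and 7 were higher at 5 ng than at 3 ng. As deposited these counts were 8, 3 and 5, and with centred arrays 9, 6 and 6. CYFIP2, a subunit of the actin-regulating WAVE complex, read 7.25, 7.42, 7.56 and 7.43 at 0 ng, 8.88, 8.93, 8.95 and 8.86 at 3 ng, and 9.36, 9.40, 9.35 and 9.27 at 5 ng. The 3 doses did not overlap, and the rise over 0 ng was 1.93 ± 0.08 at 5 ng (3.81-fold, ± SE of the fit) and 1.49 ± 0.08 at 3 ng (2.81-fold). SPATA18, which takes part in the quality control of mitochondria, rose 3.58-fold at 5 ng and 2.63-fold at 3 ng. TP53I11, a membrane protein first found as a p53-induced gene, read 5.12, 4.81, 5.42 and 4.88 at 0 ng, 5.998, 5.93, 6.07 and 5.95 at 3 ng, and 6.88, 6.70, 6.90 and 6.84 at 5 ng. Its 5 ng arrays were all above its 3 ng arrays, a difference of 0.84 ± 0.12 (adjusted p = 0.000144).

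IKBIP, a membrane protein known to bind an NF-kB kinase, rose by 1.41 at 5 ng and 0.94 at 3 ng. EDA2R, a receptor of the TNF receptor family that binds ectodysplasin A2, read 5.94, 6.13, 6.06 and 6.03 at 0 ng, 6.82, 6.76, 6.76 and 6.76 at 3 ng, and 7.41, 7.30, 7.38 and 7.19 at 5 ng. The doses were well apart, and EDA2R was 1.46-fold higher at 5 ng than at 3 ng. PERP, a membrane protein of desmosomes that also promotes apoptosis, rose 2.01-fold at 5 ng and 1.54-fold at 3 ng. NINJ1, which ruptures the plasma membrane of dying cells, rose by 0.98 and 0.67, and its difference between the doses was 0.31 (adjusted p = 0.0544). PHLDA3, a competitor of the survival kinase AKT at the membrane, rose by 0.81 at 5 ng and by 0.45 at 3 ng, but at 3 ng its deposited values gave -0.0025.

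TRIAP1, a small mitochondrial protein that limits apoptosis, read 8.85, 9.55, 9.21 and 9.43 at 0 ng, 9.51, 9.65, 9.67 and 9.72 at 3 ng, and 9.78, 9.91, 9.91 and 9.72 at 5 ng. The uninduced arrays were the most spread and overlapped those at 3 ng. TRIAP1 rose by 0.57 at 5 ng and by 0.38 at 3 ng, where the deposited values gave -0.0825. AEN, a nuclease that promotes apoptosis and whose window holds one of the pairs above, read 7.93, 8.16, 8.31 and 7.97 at 0 ng, 8.29, 8.18, 8.23 and 8.20 at 3 ng, and 8.23, 8.19, 8.26 and 8.35 at 5 ng. The 3 doses overlapped, and its differences of 0.17 at 5 ng (adjusted p = 0.123) and 0.13 at 3 ng (adjusted p = 0.257) did not pass and were below 0 as deposited.

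The 4 members of growth control rose at 5 ng on the quantile and centred scales, with a median of 0.65 on the first, and 1 of them, BTG1, rose as deposited. At 3 ng the 4 rose on the quantile scale alone, with a median of 0.40, against -0.04 as deposited and 0.185 with centred arrays, where 0 passed on either (limma). BTG1, an antiproliferative protein that works with the mRNA deadenylation machinery, rose 1.78-fold at 5 ng and 1.41-fold at 3 ng, and was the 1 member of the 4 that was also higher at 5 ng than at 3 ng (0.34 ± 0.07, adjusted p = 0.0052, and not called on the other scales). CCNG1, the cyclin G1 that brings a phosphatase to MDM2, read 9.31, 9.25, 9.22 and 9.28 at 0 ng, 9.52, 9.56, 9.55 and 9.56 at 3 ng, and 9.68, 9.54, 9.64 and 9.73 at 5 ng. The induced arrays lay just above the uninduced ones, a rise of 0.38 ± 0.05 at 5 ng and 0.28 ± 0.05 at 3 ng, and the second was -0.17 as deposited. Its relative CCNG2, cyclin G2, rose by 0.71 and 0.58. IER5, an immediate early gene, rose by 0.59 at 5 ng and by 0.30 at 3 ng. Its value at 3 ng was -0.1425 as deposited, and that call was lost without uninduced replicates 1 or 4 or without 3 ng replicates 1, 3 or 4 (adjusted p from 0.0569 to 0.0859).

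Among the 5 members that regulate transcription or RNA, 4 rose at both doses and 4 were higher at 5 ng than at 3 ng. As deposited these counts were 4 at 5 ng, 3 at 3 ng and 1 between the doses, and centring gave 4 for each. ANKRA2, an ankyrin repeat adaptor protein, read 5.30, 4.88, 4.61 and 5.21 at 0 ng, 6.56, 6.39, 6.65 and 6.38 at 3 ng, and 7.34, 7.44, 7.26 and 7.63 at 5 ng. No array of a lower dose reached those of the next, the rise was 5.34-fold at 5 ng and 2.82-fold at 3 ng, and the difference between the doses, 0.92 ± 0.13, was the largest of all 39 genes at 24 h (adjusted p = 8e-05). ZMAT3, a zinc finger protein that binds RNA, rose 2.93-fold at 5 ng and 2.12-fold at 3 ng. ZNF385A, a zinc finger partner of p53, rose 2.73-fold and 2.03-fold, and PRDM1, the transcriptional repressor BLIMP1, rose 2.25-fold and 1.70-fold. DCP1B, a cofactor of mRNA decapping, read 4.62, 4.79, 4.76 and 4.64 at 0 ng, 5.03, 4.79, 4.83 and 4.69 at 3 ng, and 4.84, 4.59, 4.61 and 4.91 at 5 ng. These arrays overlapped at every dose, and its differences of 0.04 at 5 ng and 0.13 at 3 ng did not pass and were below 0 as deposited.

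The 3 members of DNA damage tolerance, alkylation repair and the ribosome rose at both doses, though as deposited 2 rose at 5 ng and 1 at 3 ng. POLH, the translesion polymerase eta that copies past ultraviolet lesions, read 8.64, 8.64, 8.44 and 8.68 at 0 ng, 9.33, 9.33, 9.59 and 9.37 at 3 ng, and 10.01, 10.04, 10.08 and 10.09 at 5 ng. The 5 ng arrays were tightly grouped and above all others, a 2.74-fold rise over 0 ng and 1.57-fold over 3 ng (adjusted p = 3.64e-06). RPS27L, a paralog of ribosomal protein S27 that binds MDM2, rose 2.43-fold at 5 ng and 1.97-fold at 3 ng. Its difference between the doses was 0.30, a call lost without 3 ng replicates 1, 2 or 4 or 5 ng replicates 1 or 4 (adjusted p from 0.0579 to 0.0986). ASCC3, a helicase that opens DNA for that repair, rose by 0.61 and 0.46, and its difference of 0.15 between the doses did not pass.

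The 3 genes of ubiquitin transfer rose at both doses on the quantile scale, and at 3 ng 1 of them, TRIM22, also rose on the others. TRIM22, an interferon-inducible ubiquitin ligase with antiviral activity, read 9.01, 8.38, 8.18 and 8.51 at 0 ng, 9.84, 9.54, 9.69 and 9.61 at 3 ng, and 10.08, 9.80, 9.89 and 9.91 at 5 ng. It rose 2.64-fold and 2.22-fold over 0 ng, while the arrays of 5 ng and 3 ng overlapped. RNF19B, a ubiquitin ligase of the RBR type, showed more of a step between the doses, with rises of 1.23 at 5 ng and 0.59 at 3 ng and a difference of 0.64 ± 0.12 (adjusted p = 0.00197). FBXO22, the substrate receptor of an SCF ligase, rose by 0.92 and 0.56 and was 1.29-fold higher at 5 ng than at 3 ng.

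**Figure D2:**
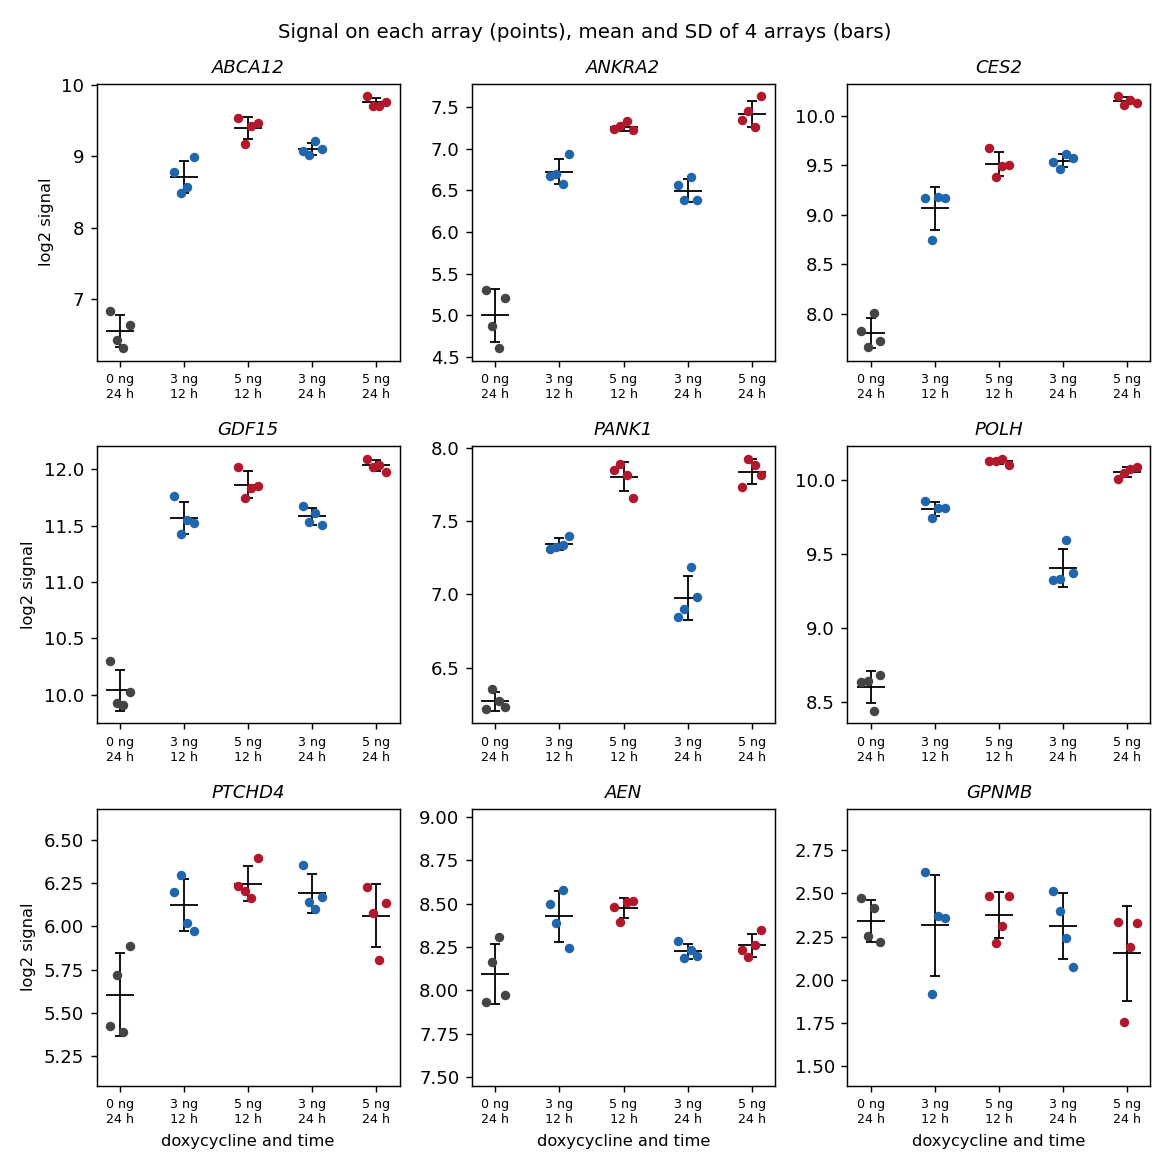
Log2 signal on each of the 4 arrays of a group (points, replicates 1 to 4 from left to right) with the mean and SD (bars), for 9 members across the 5 groups and with a separate axis for each gene. ABCA12, ANKRA2, CES2 and GDF15 show 3 separate levels at 24 h, the 3 ng points of PANK1 and POLH are lower at 24 h than at 12 h, and GPNMB overlaps across all 5 groups.

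Of the 9 secreted and membrane-associated proteins, 8 rose at 5 ng, 7 rose at 3 ng and 6 were higher at 5 ng than at 3 ng. As deposited these counts were 6, 3 and 3, and with centred arrays 7, 6 and 6. ABCA12, a lipid transporter of the skin barrier that fills lamellar granules, read 6.83, 6.43, 6.31 and 6.64 at 0 ng, 9.08, 9.01, 9.21 and 9.11 at 3 ng, and 9.85, 9.71, 9.71 and 9.77 at 5 ng. The gap from the uninduced arrays was wide at either dose, a rise of 3.21 ± 0.12 at 5 ng (9.22-fold, adjusted p = 6.21e-13) and 2.55 ± 0.12 at 3 ng (5.85-fold), the largest of the 39 genes in both. GDF15, a secreted stress cytokine of the TGF-beta family, read 10.30, 9.93, 9.91 and 10.02 at 0 ng, 11.67, 11.54, 11.61 and 11.51 at 3 ng, and 12.09, 12.02, 12.04 and 11.98 at 5 ng. Its rise was 3.98-fold at 5 ng and 2.91-fold at 3 ng.

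KITLG, the ligand of the KIT receptor, rose 2.38-fold and 1.70-fold, and SERPINB5, the serpin maspin of breast epithelium, rose 2.44-fold and 1.85-fold. SUSD6, a membrane protein with a sushi domain, read 7.53, 7.43, 7.58 and 7.44 at 0 ng, 8.08, 7.86, 8.01 and 7.88 at 3 ng, and 8.57, 8.50, 8.63 and 8.45 at 5 ng. Its step between the doses, 0.58, was larger than its step of 0.46 from 0 to 3 ng, and the 2 steps were not tested against each other. BLOC1S2, a subunit of a complex that forms lysosome-related organelles, rose by 1.14 at 5 ng and 0.72 at 3 ng.

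PTCHD4, a patched-domain protein known to repress Hedgehog signalling, has the promoter pair with 0 mismatches shown above. It read 5.43, 5.72, 5.39 and 5.89 at 0 ng, 6.35, 6.14, 6.10 and 6.17 at 3 ng, and 6.23, 6.07, 5.81 and 6.13 at 5 ng. It rose by 0.58 ± 0.11 at 3 ng (adjusted p = 0.000675) and by 0.45 ± 0.11 at 5 ng (adjusted p = 0.00356), where 1 of its arrays fell within the uninduced range, and its difference between the doses was -0.13 (adjusted p = 0.58). Its dimmer cluster averaged 4.79 at 0 ng, 5.54 at 3 ng and 5.11 at 5 ng, with the 3 ng mean again the highest of the 3 at 24 h. TGFA, a ligand of the EGF receptor, read 9.86, 9.79, 9.72 and 9.78 at 0 ng, 10.04, 9.91, 9.90 and 9.89 at 3 ng, and 10.01, 9.93, 10.02 and 9.94 at 5 ng. The shift was small, a rise of 0.19 at 5 ng that passed on the quantile scale only (adjusted p = 0.0305, and -0.125 as deposited) and 0.15 at 3 ng that did not. The TGFA call at 5 ng was lost without uninduced replicates 2, 3 or 4 or 5 ng replicates 1 or 3 (adjusted p from 0.0564 to 0.0769). GPNMB, a transmembrane glycoprotein of lysosomes and melanosomes, read 2.47, 2.25, 2.42 and 2.22 at 0 ng, 2.52, 2.40, 2.24 and 2.08 at 3 ng, and 2.33, 1.76, 2.19 and 2.33 at 5 ng. The arrays overlapped throughout, with differences of -0.19 at 5 ng and -0.03 at 3 ng that did not pass.

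The 5 metabolic enzymes and chaperones rose at both doses on the quantile scale, with medians of 1.57 at 5 ng and 0.71 at 3 ng. As deposited 3 rose at 5 ng and 2 at 3 ng, and with centred arrays 4 and 3. CES2, a carboxylesterase that activates prodrugs, read 7.83, 7.66, 8.002 and 7.72 at 0 ng, 9.54, 9.47, 9.62 and 9.57 at 3 ng, and 10.20, 10.12, 10.16 and 10.14 at 5 ng. The rise was 5.11-fold at 5 ng and 3.36-fold at 3 ng. CMBL, a hydrolase that also activates prodrugs, rose 3.56-fold at 5 ng and 3.00-fold at 3 ng, a difference of 0.25 between the doses that narrowly missed the threshold (adjusted p = 0.0505). PANK1, the pantothenate kinase that starts coenzyme A synthesis, read 6.22, 6.36, 6.27 and 6.23 at 0 ng, 6.84, 6.90, 7.18 and 6.98 at 3 ng, and 7.73, 7.92, 7.88 and 7.81 at 5 ng. It rose 2.96-fold at 5 ng and 1.63-fold at 3 ng, and its difference between the doses, 0.86 ± 0.07, was the largest after that of ANKRA2 (adjusted p = 1.49e-06).

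FUCA1, the lysosomal fucosidase, rose by 0.44 at 5 ng and 0.37 at 3 ng, with -0.0875 at 3 ng as deposited. HSPA4L, a chaperone of the heat shock protein family, rose by 0.66 at 5 ng and 0.45 at 3 ng. Its difference between the doses was 0.22 (adjusted p = 0.049), a call lost without any 1 of the 8 arrays compared (adjusted p from 0.0527 to 0.159). The call of IKBIP between the doses was lost without 3 ng replicate 1 (0.39, adjusted p = 0.0665) or without 5 ng replicate 4 (0.37, adjusted p = 0.064).

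**Figure D3:**
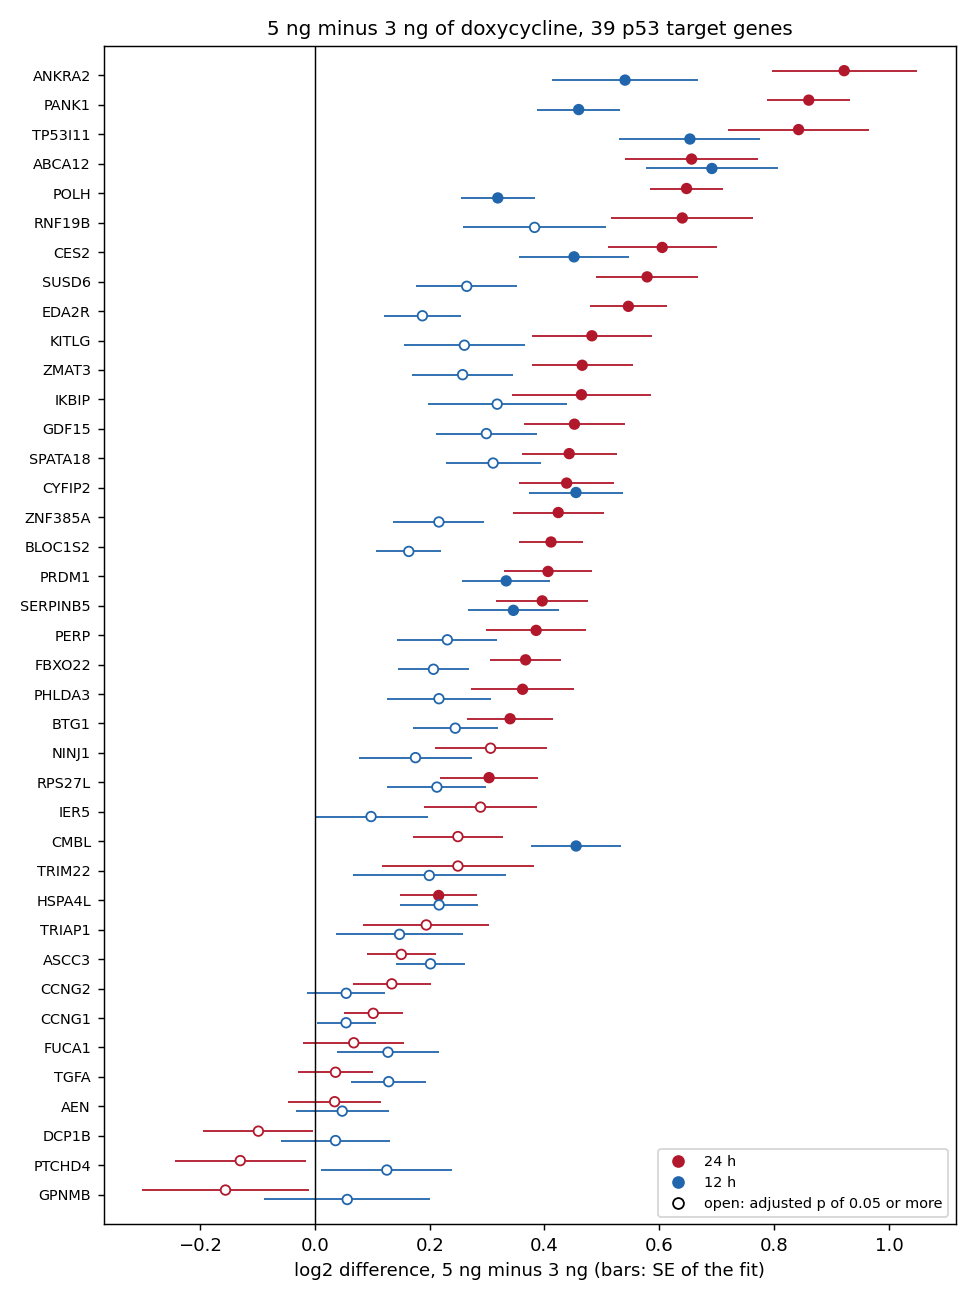
Log2 difference of 5 ng minus 3 ng for each member at 24 h (red) and 12 h (blue), with bars for the standard error of the fit and open symbols where the adjusted p was 0.05 or more. At 24 h 25 members and at 12 h 10 members pass, and 36 of the 39 values at 24 h are above 0.

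The same comparison of doses was made at 12 h. Of the 39 genes, 10 were higher at 5 ng than at 3 ng and none lower, where 2.32% of all genes were higher and 0.424% lower, and the median difference was 0.22 for the members and 0.00 for all genes. The 10 were ABCA12, TP53I11, ANKRA2, PANK1, CMBL, CYFIP2, CES2, SERPINB5, PRDM1 and POLH. ABCA12 read 9.54, 9.18, 9.42 and 9.47 at 5 ng, against 8.79, 8.49, 8.57 and 8.99 at 3 ng, a difference of 0.69 ± 0.12 (adjusted p = 0.00266). TP53I11 read 6.68, 6.42, 6.63 and 6.68 at 5 ng, against 5.95, 5.69, 6.26 and 5.89 at 3 ng, a difference of 0.65 ± 0.12. For both genes the lowest 5 ng array was above the highest 3 ng array. PANK1 read 7.85, 7.88, 7.82 and 7.66 at 5 ng, against 7.31, 7.33, 7.33 and 7.40 at 3 ng, which was 1.38-fold higher. CMBL, which missed the threshold at 24 h, was 1.37-fold higher at 5 ng at 12 h, with 10.24, 10.03, 10.23 and 10.24 at 5 ng, against 9.77, 9.54, 9.73 and 9.88 at 3 ng.

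None of the 39 genes was called on the deposited values, where the median difference was 0.20 and 10 had an unadjusted p under 0.05 (limma). Of all 18417 genes, 4 were called on those values and 1082 had an unadjusted p under 0.05. The count of members called was 8 with centred arrays, where PRDM1 and POLH were lost, and 2 when the fit held only the 8 arrays compared. It was 18 with the replicate block and 16 with trend and robust eBayes. Without 5 ng replicate 1 the count fell to 6, with PRDM1, ANKRA2, SERPINB5 and CES2 lost (adjusted p from 0.0635 to 0.0974). The ANKRA2 call was also lost without 3 ng replicates 1, 2 or 3 or 5 ng replicates 3 or 4 (0.0604 to 0.0838). The SERPINB5 call was lost without 3 ng replicates 2 or 3 or 5 ng replicates 3 or 4 (0.0518 to 0.102), and that of PRDM1 without 3 ng replicates 2 or 4 or 5 ng replicate 3 (0.06 to 0.0761).

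On the quantile scale most members were also higher in the 12 h groups, for which no uninduced group of the same time was analysed. Against uninduced cells at 24 h, so that time in culture differs as well as dose, 34 members rose and none fell at 5 ng, where 11.5% of all genes rose and 14.3% fell. At 3 ng 34 rose and none fell, where 6.61% of all genes rose and 8.57% fell. As deposited the counts were 27 and 18, and with centred arrays 31 and 20. Of all 18417 genes, 633 and 290 rose as deposited, and 1082 and 557 with centred arrays. Called on the quantile scale alone were 3 members at 5 ng (AEN, TRIAP1 and CCNG2) and 13 at 3 ng (AEN, PHLDA3, PERP, TRIAP1, NINJ1, CCNG1, CCNG2, BTG1, PRDM1, ASCC3, FBXO22, RNF19B and HSPA4L). The median differences of the members were 1.01 at 5 ng and 0.71 at 3 ng, and those of all genes were -0.02 in both. ABCA12 led in both, 7.20-fold higher at 5 ng and 4.45-fold at 3 ng, followed by ANKRA2 at 4.80-fold and 3.30-fold and GDF15 at 3.54-fold and 2.88-fold. ANKRA2 read 7.23, 7.27, 7.33 and 7.22 at 5 ng and 12 h and 6.67, 6.70, 6.58 and 6.94 at 3 ng and 12 h, all above the uninduced arrays given above. GDF15 read 12.02, 11.74, 11.84 and 11.86 at 5 ng, and 11.76, 11.43, 11.55 and 11.53 at 3 ng.

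The 10 members of cell death and survival rose in both 12 h groups on the quantile scale, AEN among them, with 7 at 5 ng and 5 at 3 ng as deposited and 8 and 5 with centred arrays. AEN read 8.48, 8.39, 8.51 and 8.51 at 5 ng and 12 h, all above the uninduced arrays, a rise of 0.38 ± 0.08 (adjusted p = 0.00162). It read 8.50, 8.39, 8.58 and 8.24 at 3 ng and 12 h, where 1 array fell within the uninduced range, a rise of 0.33 ± 0.08 (adjusted p = 0.00915). Neither AEN call held as deposited or with centred arrays. IER5, FUCA1, TGFA, GPNMB and DCP1B did not pass in either 12 h group. IER5 had a difference of 0.26 at 5 ng and 0.16 at 3 ng, where the deposited and centred values were below 0. FUCA1 had 0.17 and 0.04, TGFA 0.09 and -0.04, and GPNMB 0.03 and -0.02, and each of these changed sign as deposited at one dose or both. DCP1B had -0.0019 and -0.04, both above 0 on at least 1 other scale. The call of TRIAP1 at 3 ng (0.37) was lost without 3 ng replicates 1, 3 or 4 or uninduced replicates 1 or 3 (adjusted p from 0.0604 to 0.0823).

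**Figure D4:**
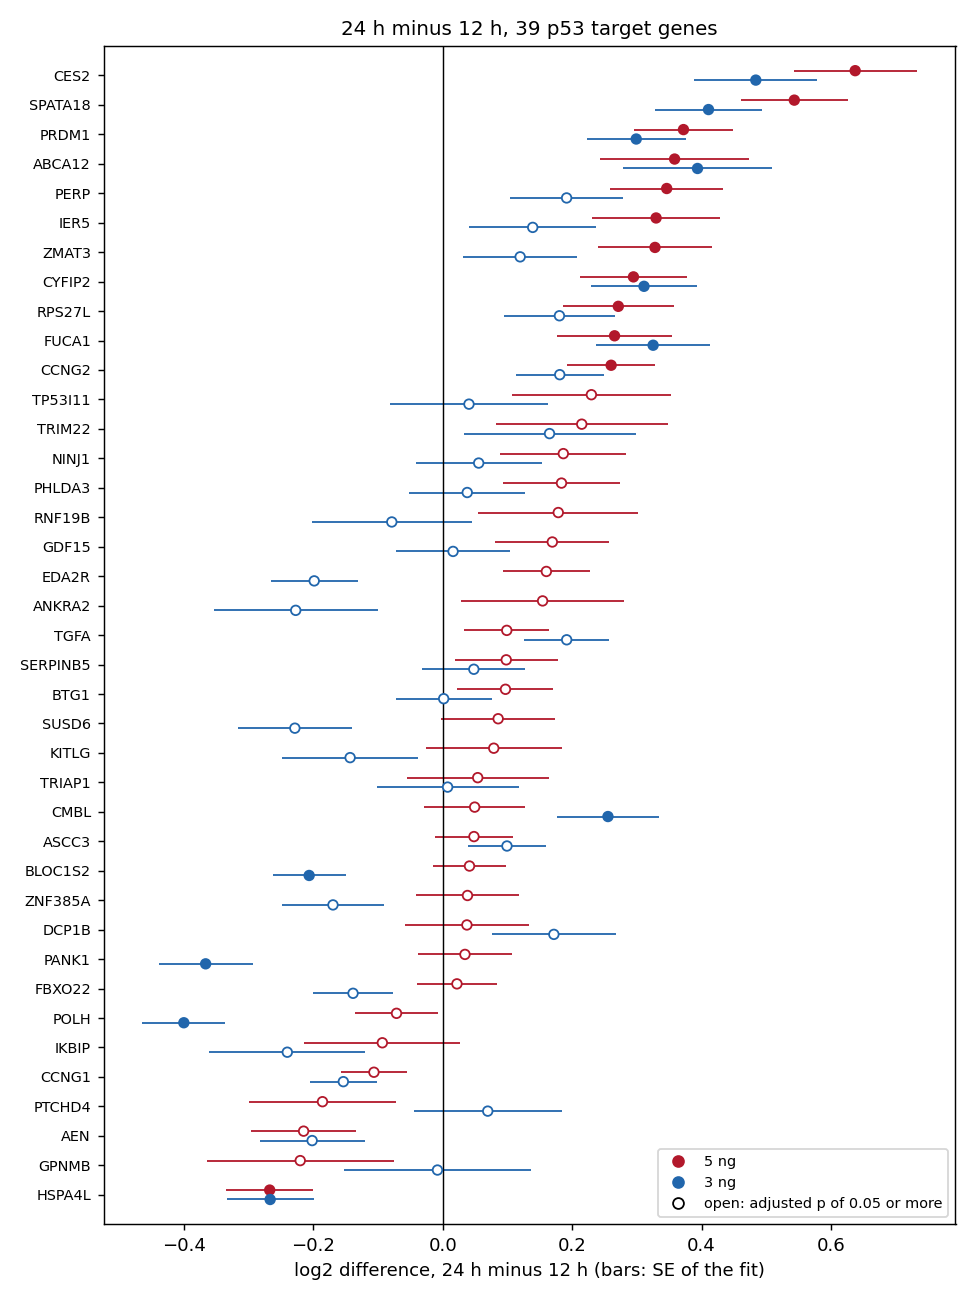
Log2 difference of 24 h minus 12 h for each member at 5 ng (red) and 3 ng (blue), with bars for the standard error of the fit and open symbols where the adjusted p was 0.05 or more. CES2 and SPATA18 lie highest at both doses, and POLH and PANK1 lie lowest at 3 ng, at -0.40 and -0.37.

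Between 12 h and 24 h calls in both directions were made on the quantile scale, and they depended on the scale. At 5 ng 11 were higher at 24 h and 1 was lower, where 10.8% of all genes were higher and 7.6% lower. At 3 ng 7 were higher and 4 lower, where 9.92% of all genes were higher and 6.06% lower. As deposited 1 was higher and 0 lower at 5 ng, and 0 were higher and 3 lower at 3 ng. With centred arrays 2 were higher and 0 lower at each dose. Of all 18417 genes, 78 were higher and 653 lower at 5 ng as deposited, and 13 and 803 at 3 ng. With centred arrays 565 of all genes were higher and 681 lower at 5 ng, and 392 and 491 at 3 ng. CES2 and SPATA18 were the members higher with centred arrays, and POLH, PANK1 and SUSD6 those lower as deposited at 3 ng, so the other time calls below stand on the quantile scale alone. The medians of the members, 0.10 at 5 ng and 0.04 at 3 ng, were close to those of all genes, 0.07 and 0.08. CES2 read 10.20, 10.12, 10.16 and 10.14 at 24 h on 5 ng, against 9.68, 9.39, 9.50 and 9.50 at 12 h, a rise of 0.64 ± 0.10 (adjusted p = 0.000115) and the only one of these that was also called as deposited. On 3 ng it read 9.54, 9.47, 9.62 and 9.57 at 24 h, against 9.17, 8.74, 9.18 and 9.17 at 12 h, a rise of 0.48. SPATA18 rose by 0.54 on 5 ng and 0.41 on 3 ng, with the 24 h arrays above the 12 h arrays at each dose. PRDM1 rose by 0.37 and 0.30.

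ABCA12, CYFIP2 and FUCA1 also rose on both doses, by 0.36 and 0.39, 0.29 and 0.31, and 0.27 and 0.33 on 5 ng and 3 ng. Single arrays ended each of these calls. On 5 ng that of ABCA12 was lost without any array but 12 h replicate 1 (adjusted p from 0.0516 to 0.127) and that of FUCA1 without any but 12 h replicate 2 (0.0577 to 0.153). On 3 ng the ABCA12 call was lost without 12 h replicates 2 or 3 or 24 h replicates 3 or 4 (0.0555 to 0.0988), and the FUCA1 call without 12 h replicate 4 or 24 h replicate 1 (0.0567 and 0.0611). The CYFIP2 call was lost without 12 h replicate 2 on 5 ng (adjusted p = 0.0626) and on 3 ng (adjusted p = 0.0558).

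PERP, IER5, ZMAT3, RPS27L and CCNG2 rose from 12 h to 24 h on 5 ng, by 0.26 to 0.35. The IER5 call was lost without 12 h replicates 3 or 4 or 24 h replicates 1, 2 or 3 (adjusted p from 0.0693 to 0.0789), and the RPS27L call without 12 h replicates 2 or 3 or 24 h replicates 1 or 4 (0.0635 to 0.109). CMBL rose by 0.26 on 3 ng, a call lost without 12 h replicates 2 or 3 or 24 h replicates 2, 3 or 4 (adjusted p from 0.0577 to 0.123).

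POLH and PANK1 were lower at 24 h than at 12 h on 3 ng. POLH read 9.33, 9.33, 9.59 and 9.37 at 24 h, against 9.86, 9.74, 9.81 and 9.81 at 12 h, so that every later array was below every earlier one, and it fell by 0.40 ± 0.06 (adjusted p = 0.000279). PANK1 read 6.84, 6.90, 7.18 and 6.98 at 24 h, against 7.31, 7.33, 7.33 and 7.40 at 12 h, and dropped by 0.37 ± 0.07 (adjusted p = 0.0018). Both also fell as deposited, by 0.60 and 0.62, where the median of all genes was 0.225 lower at 24 h, and neither was called with centred arrays (-0.29 and -0.32). On 5 ng POLH had a difference of -0.07 and PANK1 of 0.03, neither past the test, and both changed sign on another scale (0.02 for POLH with centred arrays, -0.115 for PANK1 as deposited). HSPA4L fell by 0.27 on each dose, and was also lower without passing the test as deposited (-0.34 on 5 ng and -0.45 on 3 ng) and with centred arrays (-0.18 and -0.14). BLOC1S2 fell by 0.21 on 3 ng, a call lost without 12 h replicate 3 or 24 h replicates 2 or 4 (adjusted p from 0.0509 to 0.0612). SUSD6 was called lower at 24 h on 3 ng only as deposited, at -0.47. PTCHD4 was not called at either dose on its brighter cluster, which averaged 6.06 at 24 h and 6.25 at 12 h on 5 ng. On 3 ng that cluster averaged 6.19 and 6.12. Its dimmer cluster was lower at 24 h, at 5.11 against 5.96 on 5 ng and 5.54 against 5.95 on 3 ng, and was not tested alone.

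Whether the gap between the doses itself changed from 12 h to 24 h was tested as an interaction. None of the 39 genes passed it (limma), on the quantile, deposited or centred values, and 6, 3 and 0 had an unadjusted p under 0.05. Of all 18417 genes, 1115, 391 and 654 had an unadjusted p under 0.05 on these scales. Across all genes 0.00543% were called higher, which is 1 gene, and 0.0652% lower. PANK1 had the largest value among the members, 0.40 ± 0.10 (adjusted p = 0.239), from a gap of 0.86 at 24 h and 0.46 at 12 h. EDA2R had 0.36 ± 0.09, POLH 0.33 ± 0.09, ANKRA2 0.38 ± 0.18, SUSD6 0.31 ± 0.12 and BLOC1S2 0.25 ± 0.08. With PANK1 these are the 6 members with an unadjusted p under 0.05 on the quantile scale. Each had a wider gap at 24 h, and none passed after adjustment. PTCHD4 had the lowest value, -0.26 ± 0.16 (adjusted p = 0.917).

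A panel of 25 better-known p53 targets, of which 23 had a named cluster, was set beside the members as counts. At 24 h 22 of the 23 rose at 5 ng and 20 at 3 ng, and none fell, against 36 and 35 of the 39 members. As deposited the panel counts were 15 risen at 5 ng, and 8 risen and 1 fallen at 3 ng. TP53I3, a quinone reductase, TP53INP1, an autophagy and stress protein, and SESN1, a sestrin, had the largest panel changes at 5 ng, 3.81, 2.92 and 2.12. At 3 ng they were TP53I3 at 3.36, TP53INP1 at 2.07 and PIDD1, a scaffold for caspase 2, at 1.51. Between the doses 17 of the 23 were higher at 5 ng at 24 h (11 as deposited) and 7 at 12 h (0 as deposited, 3 with centred arrays), led at 24 h by APAF1, the core of the apoptosome, at 1.11.

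At 12 h the panel counts against 0 ng were 21 at 5 ng and 20 at 3 ng, all risen (17 and 11 as deposited). From 12 h to 24 h the panel had 6 risen and 2 fallen on 5 ng, and 1 risen and 6 fallen on 3 ng. These splits were 0 and 0 on 5 ng and 0 and 3 on 3 ng as deposited, and 1 and 0 on 5 ng and 0 and 1 on 3 ng with centred arrays. APAF1 dropped by 0.87 on 3 ng, more than POLH or PANK1 on the same log2 scale of differences, and it was the 1 gene called higher in the interaction, at 0.60 (adjusted p = 0.0388, on the quantile scale alone).

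Markers of the cell types that a culture could hold were read in the same samples. Of 10 mammary epithelial markers, 8 rose and 1 fell at 5 ng and 24 h (5 and 1 as deposited), with a median difference of 0.60, and their summed signal on the log2 scale ran from 15.13 to 15.16 at 5 ng, against 14.59 to 14.72 at 0 ng. The sum ran from 14.99 to 15.03 at 3 ng and 24 h, and 7 rose and 1 fell there (0 and 1 as deposited). Of the 6 immune markers 1, the lysosomal CD68, rose at 5 ng on the quantile scale alone, with sums from 9.02 to 9.32 at 5 ng, against 8.83 to 8.96 at 0 ng. Of the 4 endothelial markers 1, VWF, rose on the quantile and centred scales, while as deposited that rise was not called and KDR fell. Of the 6 fibroblast markers none passed on any of the 3 scales. The sums were 5.49 to 5.79 at 5 ng and 5.48 to 5.72 at 0 ng for the endothelial list, and 7.08 to 7.23 at 5 ng and 7.13 to 7.21 at 0 ng for the fibroblast list. At 5 ng and 24 h the epithelial median of 0.60 stood beside 1.17 for the members, and at 3 ng 0.37 beside 0.71. With centred arrays 0 of the 10 rose at 3 ng and 1 fell, where 22 of the 39 members rose and none fell. Between the doses at 24 h 2 of the 10 were higher at 5 ng on the quantile scale, and 0 on the other scales. The members higher there were 25 on the quantile scale, 13 as deposited and 21 centred. The part of the epithelial markers in the members' rise was not tested.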

How the data were processed

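The 20 arrays were deposited as 1 table of log2 values, with 33297 transcript clusters and no missing values, and the scale is read from the values. Per the submitters' processing notes, GCOS, GCRMA, Affymetrix Power Tools and limma were used, with their roles, versions and genome build not given in the sources used here. Of the clusters 19460 carried a single gene symbol, 1754 several and 12083 none, and the brightest cluster was taken for each of the 769 genes with several. Arrays were quantile-normalized (limma 3.58.1, R 4.3.3), because their deposited medians differ. Group means of all 20 arrays were fitted with lmFit and eBayes (15 residual degrees of freedom), and p-values of the 9 comparisons were adjusted by Benjamini-Hochberg over 18417 genes. A call needs an adjusted p under 0.05, and a fold is 2 to the power of the log2 difference. The fit was tested on simulated data.

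The members, the role lists, the panel, the markers and the choice of scale were made with earlier results of these data known. Every listed member is named, the panel is given by counts with its 3 largest changes, and markers by counts and ranges. The alternatives were other scales, a replicate block, other fits, clusters and filters, and leaving out each array. The panel genes BTG2 and FDXR and the epithelial markers KRT17 and KRT6A were not analysed here. Arrays carry no counts, so their number, 4 a group, limits precision. Replicates of a group correlated at 0.979 to 0.986, and no 2 arrays were identical. Motifs were searched in RefSeq promoter windows.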

Additional observations from a re-analysis of the deposited data

Results flagged for a closer look

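Among the 195 sets of 4 arrays (39 genes in 5 groups), 13 had 1 array whose gap to the nearest of the others, over the whole range, passed Dixon's critical value. Chance alone flags about 5% of such sets. In uninduced cells, replicate 3 was apart for HSPA4L at 9.35 (the others from 9.55 to 9.57), RPS27L at 6.43 (6.69 to 6.73) and ZNF385A at 6.88 (6.71 to 6.73). At 3 ng and 24 h, replicate 1 was apart for EDA2R at 6.82 (others at 6.76), IKBIP at 7.36 (7.64 to 7.69) and TGFA at 10.04 (9.89 to 9.91). In the same group replicate 3 was apart for KITLG at 7.51 (7.37 to 7.38) and POLH at 9.59 (9.33 to 9.37), and replicate 4 for NINJ1 at 8.14 (8.25 to 8.26). Of the 12 h arrays at 3 ng, CES2 was low in replicate 2 at 8.74 (9.17 to 9.18) and ZMAT3 high in replicate 4 at 8.89 (8.66 to 8.70). At 5 ng, CMBL was low in replicate 2 of 12 h at 10.03 (10.23 to 10.24) and IER5 in replicate 4 of 24 h at 9.41 (9.73 to 9.78).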

How the results depend on the processing

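The counts of members called stayed within 1.5 times under the other settings, except as follows. On deposited values 13 members were called at 3 ng against 0 ng at 24 h, 13 between the doses at 24 h, 0 between the doses at 12 h (limma, 10 at an unadjusted p under 0.05), 1 and 3 from 12 h to 24 h on 5 ng and 3 ng, and 18 at 3 ng and 12 h. With centred arrays they were 22 at 3 ng and 24 h, 2 and 2 from 12 h to 24 h on 5 ng and 3 ng, and 20 at 3 ng and 12 h. Between the doses at 12 h, the replicate block gave 18, trend and robust eBayes 16 and a fit of only the groups compared 2. That fit gave 6 from 12 h to 24 h on 3 ng. Without 5 ng replicate 1 of 12 h there were 6 between the doses at 12 h.

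Leaving out 1 array gave 35 to 36 calls at 5 ng and 34 to 35 at 3 ng against 0 ng at 24 h, and 22 to 24 between the doses. It gave 6 to 11 between the doses at 12 h, 8 to 11 and 8 to 12 from 12 h to 24 h on 5 ng and 3 ng, 34 to 35 and 33 to 34 at 5 ng and 3 ng at 12 h, and 0 for the interaction.

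Some signs changed with the scale, among them those of 5 members called at 3 ng and 24 h (PHLDA3, TRIAP1, CCNG1, IER5 and FUCA1) and of TGFA, called at 5 ng and 24 h. As deposited, at 5 ng and 24 h AEN was -0.23, DCP1B -0.235 and TGFA -0.125. At 3 ng and 24 h AEN was -0.3425, PHLDA3 -0.0025, TRIAP1 -0.0825, CCNG1 -0.17, IER5 -0.1425, DCP1B -0.0775, TGFA -0.2825 and FUCA1 -0.0875. At 5 ng and 12 h TGFA was -0.1625, GPNMB -0.0775 and FUCA1 -0.075. IER5 at 3 ng and 12 h was -0.0675, DCP1B 0.07, GPNMB 0.125 and FUCA1 -0.1525. From 12 h to 24 h on 5 ng PANK1 was -0.115 and BLOC1S2 -0.07.

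With centred arrays, at 3 ng and 24 h AEN was -0.1175 and TGFA -0.0575, and at 5 ng and 12 h DCP1B was 0.01 and TGFA -0.05. IER5 at 3 ng and 12 h was -0.1475, GPNMB 0.045 and FUCA1 -0.2325. POLH from 12 h to 24 h on 5 ng was 0.02, and with array weights GPNMB at 3 ng and 12 h was 0.0237.

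Without 1 array, at 24 h DCP1B ran from -0.0222 to 0.0833 at 5 ng and GPNMB from -0.1004 to 0.0461 at 3 ng. At 5 ng and 12 h DCP1B ran from -0.0536 to 0.0452 and GPNMB from -0.0067 to 0.0862. At 3 ng and 12 h DCP1B ran from -0.0736 to 0.019, GPNMB from -0.1252 to 0.109 and FUCA1 from -0.0082 to 0.1139. PANK1 from 12 h to 24 h on 5 ng ran from -0.0133 to 0.0695. The cause was not tested.

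The block also took the count from 12 h to 24 h on 3 ng to 16, against 11. The mean of a gene's clusters took that on 5 ng to 13 (11 higher and 2 lower), against 12 (11 higher and 1 lower). Same-numbered arrays of different groups correlated at -0.029 to 0.217 after removal of group means (median 0.0604, 12 of 40 pairs over 0.1), and differently numbered ones at a median of -0.0134 (4 of 120 over 0.1). Of the 20 arrays 18 lay closest to their own number, a hint from the data that numbers are shared across groups, which the labels do not state. The main fit does not use these numbers, and the block is an alternative to it. Between the doses at 12 h the block gave 18 calls, against 10 in the main fit. Removing the dimmest 30% of genes left 12892 and took out GPNMB. Among all calls the share of rises moved with the scale in the other comparisons too: between the doses at 12 h it was 84.6%, 100% as deposited and 98.5% centred. On 5 ng and 3 ng from 12 h to 24 h it was 58.7% and 62.1%, 10.7% and 1.59% as deposited, and 45.3% and 44.4% centred. At 5 ng and 3 ng at 12 h it was 44.5% and 43.5%, 23.0% and 55.9% as deposited, and 35.5% and 15.4% centred.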
